A study of Mus musculus with 6 samples.

Results

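The transcription factors that drive epithelial-mesenchymal transition (EMT) were followed in cultures of germline stem cells from male mice, cells that renew themselves and supply sperm production for life. They were taken as the 10 genes Snai1, Snai2, Twist1, Twist2, Zeb1, Zeb2, Prrx1, Tcf3, Tcf4 and Foxc2, matched by Ensembl identifier to the authors' deposited table. All 10 had a row among 22432 genes, and all 10 had an adjusted p-value, as 19211 genes did. THY1+ cells, THY1 being a surface glycoprotein used to enrich germline stem cells, had been divided by the surface adhesion protein CDH1 (E-cadherin) into 3 CDH1+/THY1+ and 3 CDH1-/THY1+ samples. Each population came from the cultures RP7 (8 weeks of age), RP5 (19 days) and WT1 (5 weeks), all from males and at passage 6 to 8. RP7 and RP5 carry the strain label "OCT4/GFP; Dox-OCT4", and WT1 carries the label C57BL/6. All 6 samples had been grown on DR4 feeder fibroblasts, a mesenchymal cell type, with GDNF and FGF in the medium, and total RNA was sequenced after depletion of ribosomal RNA. The 3 samples of each population thus come from cultures that differ in age and, for WT1, in strain label. Both populations come from the same 3 cultures, so the samples form pairs by culture. The p-values rest on the spread between these libraries. Whether they take the pairs into account is unknown, since the model formula is not given in the sources used here.

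EMT is the programme by which cells loosen epithelial junctions and take on mesenchymal shape and motility. Most of its core factors are DNA-binding proteins that act on E-boxes: the SNAI and ZEB zinc finger repressors are known to silence the E-cadherin gene, while TWIST proteins bind as dimers with E proteins such as TCF3 and TCF4. Surface CDH1, the sorting marker here, is thus a product of a gene that several of these factors repress.

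The factors did not move as one group. In CDH1+/THY1+ cells, the population with surface E-cadherin, RNA of Tcf4, Snai2, Prrx1 and Zeb2 was higher and RNA of Tcf3 and Foxc2 was lower, while Snai1, Twist1, Twist2 and Zeb1 were not called. A gene was called when its DESeq2 adjusted p-value in the authors' deposited table was under 0.05. Of the 10 factors, 4 were called higher and 2 lower. Over all genes with an adjusted p-value the authors' deposited table calls 33.5% (17.1% higher and 16.4% lower), and among genes with at least the mean count of the least abundant factor 44.2% were called. The 6 of 10 called factors therefore stand against a background in which calls are common. The median log2 fold change of the factors was 0.34, against 0.01 over all genes with an adjusted p-value in the authors' deposited table. A value written with ± is a log2 fold change of CDH1+/THY1+ relative to CDH1-/THY1+ cells, beside the standard error of the authors' test. The table gives 1 mean count over all 6 libraries and no value per library, so the overlap of the 2 populations cannot be shown. The direction rests on the name of the table, since Cdh1 was not analysed here.

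**Figure D1:**
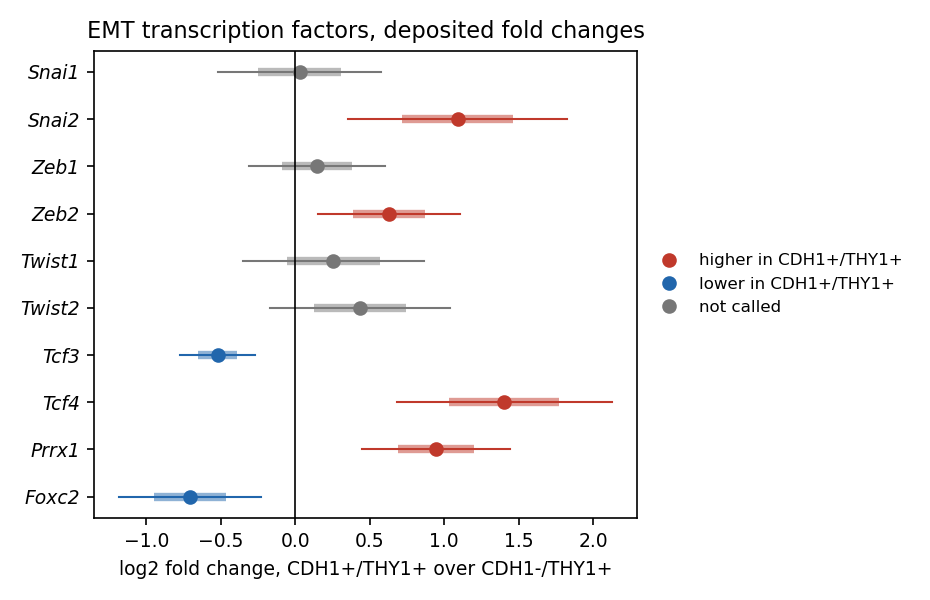
Log2 fold change (CDH1+/THY1+ against CDH1-/THY1+) of the 10 factors, with thick bars for 1 standard error and thin bars for the approximate 95% interval. The intervals of Tcf4, Snai2, Prrx1 and Zeb2 lie above 0 and those of Tcf3 and Foxc2 below it.

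Snai1 and Snai2 encode zinc finger repressors known as Snail and Slug. Snai2 (chromosome 16, 14705852 to 14709385, plus strand, GRCm38) was the more changed of the pair. Its level in the authors' deposited table was a mean normalised count of 82.0, and it rose by 1.09 ± 0.37, a 2.13-fold higher level in CDH1+/THY1+ cells (DESeq2 adjusted p = 0.0136). The approximate 95% interval from the authors' standard error reached from 1.28-fold to 3.54-fold. The call did not hold under a Benjamini-Yekutieli adjustment of the authors' deposited p-values (adjusted p = 0.181). Snai1 (chromosome 2, 167538195 to 167542814, plus strand) had, in the authors' deposited table, a mean count of 132 at 0.03 ± 0.28 (DESeq2 adjusted p = 0.953). Its interval, from 0.699-fold to 1.49-fold, leaves room for changes of moderate size in either direction. Snai3, the third gene of the family, had a mean count of 78.5 and 0.01 ± 0.33, uncalled in the authors' deposited table (DESeq2 adjusted p = 0.986).

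The SNAI and ZEB zinc fingers recognise the E-box CACCTG, which reads CAGGTG on the other strand. RefSeq promoter windows of build GRCm38.p6, from 250 bases before to 50 after the start, were found for 6 of the 10 factors. Snai1 was the only one of these 6 whose window held CACCTG on either strand, 16.7% against 22.6% of 27025 genes with a window. Counted by window, it was 20.2% of 32851 promoter windows of the same length. The general E-box CANNTG, which includes CACCTG, was found in the windows of Snai1 and Tcf3. This was 33.3% of the 6 factors, against 75.0% of all genes with a window and 72.3% of all windows. The windows of Prrx1, Twist1 and Twist2 and all 4 windows of Zeb2 held no CANNTG. Windows were not found for Snai2, Zeb1, Tcf4 and Foxc2. The 2 stretches of these windows that hold an E-box are shown. Only that of Snai1 holds the CACCTG of SNAI and ZEB proteins, while that of Tcf3 holds CACTTG, another form of CANNTG. The first lies on chr2:167538037-167538106 (plus strand) and the second on chr10:80433652-80433721 (minus strand), with the E-box in capitals, 126 to 121 bases before the start of Snai1 and 54 to 49 bases before that of Tcf3. A match is a description of the letters and not a measured binding site.
Snai1: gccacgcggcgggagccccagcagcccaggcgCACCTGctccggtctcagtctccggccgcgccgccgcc
Tcf3: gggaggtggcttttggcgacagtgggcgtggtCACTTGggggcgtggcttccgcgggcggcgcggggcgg

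**Figure D2:**
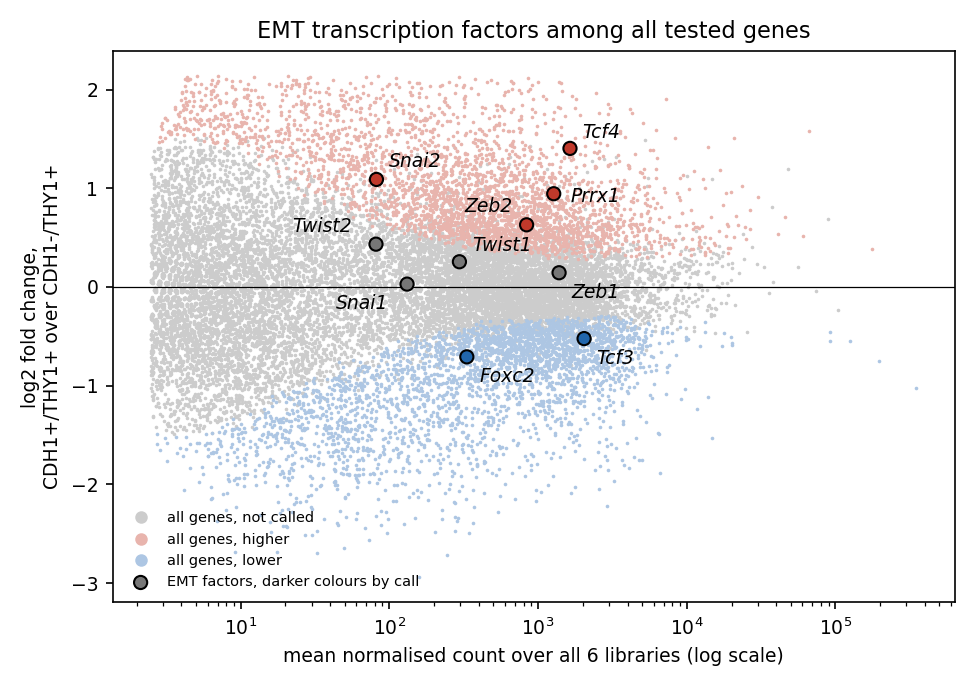
Log2 fold change (CDH1+/THY1+ against CDH1-/THY1+) against the mean normalised count over all 6 libraries on a log axis, for all genes with an adjusted p-value and, ringed and named, the 10 factors. Tcf4 and Prrx1 combine mean counts of 1640 and 1275 with log2 fold changes of 1.40 and 0.95, while Snai1, at 132, sits on the zero line.

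Zeb1 and Zeb2 encode large repressors with 2 zinc finger clusters and a homeodomain, and are known as targets of the miR-200 family of microRNAs, with which they form a mutually repressing pair in epithelial cells. The mature sequences of the miR-200 family are printed from RefSeq (GRCm38.p6), because their seeds (bases 2 to 8, in capitals) define the sites counted in the 3' UTRs of the factors. They fall into 2 seed groups, AAUACUG for miR-200b, miR-200c and miR-429 and AACACUG for miR-200a and miR-141.
miR-200b-3p: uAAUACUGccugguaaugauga
miR-200c-3p: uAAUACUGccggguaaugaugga
miR-429-3p: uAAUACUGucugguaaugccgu
miR-200a-3p: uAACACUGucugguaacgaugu
miR-141-3p: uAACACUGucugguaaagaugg

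The letters that pair with these seeds are CAGTATT and CAGTGTT in the transcript. In the longest annotated 3' UTR of each gene (GENCODE M21), Zeb1 held 9 such matches in 2401 bases and Zeb2 held 9 in 4941 bases, in each case 5 of CAGTATT and 4 of CAGTGTT. At least 1 match was present in 25.7% of the 21037 genes with a 3' UTR, and 3 genes, Zeb1 and Zeb2 among them, had 9 or more. Among the 200 genes of nearest 3' UTR length, the highest count was 4 for Zeb1 and 6 for Zeb2. Snai2 held 2 matches in 1089 bases, and 3% of genes of like length had as many. Tcf4 held 3, Snai1, Tcf3 and Foxc2 held 1 each, and Twist1, Twist2 and Prrx1 held 0. Of the 9 matches of Zeb2, 8 lay between bases 209 and 1045 of the 3' UTR. A run of 5 of them is shown, minus strand of chromosome 2 in GRCm38, with the paired letters in capitals and named by their first base in the 3' UTR. They lie on chr2:44987818-44987840, chr2:44987777-44987799, chr2:44987739-44987761, chr2:44987654-44987676 and chr2:44987520-44987542.
Zeb2 base 741: tccttgtaCAGTGTTcagagggt
Zeb2 base 782: accagcttCAGTGTTaagctcac
Zeb2 base 820: acccgtgtCAGTATTagacgact
Zeb2 base 905: aattttgtCAGTATTacaccaaa
Zeb2 base 1039: gtagtgtaCAGTATTatagttct

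**Figure D3:**
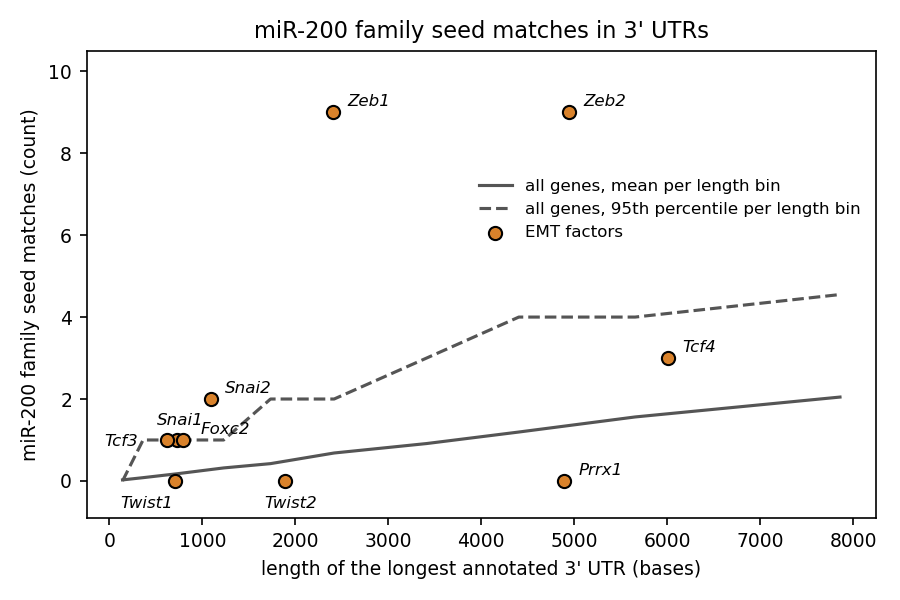
Number of miR-200 family seed matches against the length in bases of the longest annotated 3' UTR, for the 10 factors (points) and for all genes (solid line, mean; dashed line, 95th percentile, per length bin). Zeb1 and Zeb2 hold 9 matches each, and Prrx1, with a 3' UTR of 4891 bases, holds 0.

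Zeb2 (chromosome 2, 44983632 to 45117395, minus strand) had a mean count of 838 in the authors' deposited table and rose by 0.63 ± 0.24, a 1.55-fold higher level in CDH1+/THY1+ cells (DESeq2 adjusted p = 0.0294). The approximate 95% interval ran from 1.11-fold to 2.15-fold. It had the highest adjusted p of the 6 calls and did not hold under the Benjamini-Yekutieli adjustment of the authors' deposited p-values (adjusted p = 0.386). Zeb1 (chromosome 18, 5591860 to 5775467, plus strand), with a mean count of 1386, had 0.14 ± 0.23, uncalled in the authors' deposited table (DESeq2 adjusted p = 0.681). Its interval, from 0.805-fold to 1.52-fold, overlaps that of Zeb2, and the difference between both genes was not tested. The antisense transcript Zeb2os shares 653 bases with the exons of Zeb2 (3.27% of them) and had a mean count of 17.1 at -0.05 ± 0.46 in the authors' deposited table (DESeq2 adjusted p = 0.956). Zeb1 shares 198 exon bases with Gm10125 on the other strand, which had a mean count of 35.9 in the authors' deposited table. Whether the counting used strand is not given in the sources used here. Mature microRNAs were not measured in these libraries. Of the family's precursors, Mir200a had a row, with a mean count of 2.23 and 1.21 ± 0.60 in the authors' deposited table, and no adjusted p-value. The Zeb values therefore have no matching measure of the microRNAs.

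Twist1 and Twist2 encode basic helix-loop-helix (bHLH) proteins of mesoderm and skeletal precursors. Twist1 (chromosome 12, 33957671 to 33959829, plus strand) had, in the authors' deposited table, a mean count of 296 at 0.26 ± 0.31 (DESeq2 adjusted p = 0.568), with an interval from 0.784-fold to 1.82-fold. Twist2 (chromosome 1, 91801461 to 91848028, plus strand) had a mean count of 81.4 and 0.43 ± 0.31 in the authors' deposited table (DESeq2 adjusted p = 0.287), with an interval from 0.888-fold to 2.06-fold. Neither was called, and neither interval excludes a rise of the size seen for Zeb2. The antisense gene Gm29100 shares 1477 bases with Twist2, 46.5% of its exon length, and had a mean count of 5.38 in the authors' deposited table.

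Tcf3 and Tcf4 encode class I bHLH E proteins, E2A and E2-2. They are the general dimer partners of TWIST and other bHLH factors, and are distinct from the Wnt pathway factors that share the TCF name. They were called in opposite directions. Tcf4 (chromosome 18, 69343356 to 69689079, plus strand) had a mean count of 1640 in the authors' deposited table and rose by 1.40 ± 0.37, a 2.65-fold higher level in CDH1+/THY1+ cells (DESeq2 adjusted p = 0.00085). Of the 10 factors it had the highest fold change in the authors' deposited table, above 95.8% of the genes tested. Its standard error was larger than that of 99% of the 200 genes of nearest mean count. Tcf3 (chromosome 10, 80409514 to 80433647, minus strand), at a mean count of 2041, was 1.44-fold lower in CDH1+/THY1+ cells in the authors' deposited table (log2 -0.52 ± 0.13, DESeq2 adjusted p = 0.0003). Its standard error was small for its abundance, above 15.5% of genes of nearest mean count. Both calls held under the Benjamini-Yekutieli adjustment of the authors' deposited p-values (adjusted p = 0.0119 for Tcf4 and 0.00429 for Tcf3). The approximate 95% intervals on the log2 scale, 0.68 to 2.13 for Tcf4 and -0.77 to -0.27 for Tcf3, lie on different sides of 0. Tcf12, which encodes the third E protein (HEB), had a mean count of 2244 and -0.11 ± 0.22, uncalled in the authors' deposited table (DESeq2 adjusted p = 0.755).

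The ID proteins bind E proteins and keep them from DNA. Among the 9 of 11 listed bHLH partners and ID inhibitors with a row, 1 was higher and 2 were lower in the authors' deposited table, 33.3% against 33.5% of all genes. Id2 rose by 1.85 ± 0.35 in the authors' deposited table (DESeq2 adjusted p = 2.31e-06). Id4, known as a gene of spermatogonial stem cells, had a lower level in CDH1+/THY1+ cells, at -0.81 ± 0.33 in the authors' deposited table (DESeq2 adjusted p = 0.0434), and the somite factor gene Tcf15 was lower at -1.14 ± 0.33 (DESeq2 adjusted p = 0.00289). The call of Id4 did not hold under the Benjamini-Hochberg adjustment of all the authors' deposited p-values (adjusted p = 0.0533). It did not hold under the Benjamini-Yekutieli adjustment either (adjusted p = 0.564). In the authors' deposited table, Id1 (0.20 ± 0.25) and Id3 (0.82 ± 0.37) had no call. The list had calls about as often as all genes, so no division of the E protein antagonists is read from them. Other partners not called were Hand1 (1.32 ± 0.60), Hand2 (1.30 ± 0.64) and Scx (0.81 ± 0.53), with mean counts of 2.57 to 17.4 in the authors' deposited table.

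Prrx1 encodes a paired-related homeodomain protein of limb and craniofacial mesenchyme. The gene (chromosome 1, 163245119 to 163313710, minus strand) had a mean count of 1275 in the authors' deposited table and rose by 0.95 ± 0.25, a 1.93-fold higher level in CDH1+/THY1+ cells (DESeq2 adjusted p = 0.00119). The call held under the Benjamini-Yekutieli adjustment of the authors' deposited p-values (adjusted p = 0.0167). Its relative Prrx2, at a mean count of 313, had 0.04 ± 0.22, uncalled in the authors' deposited table (DESeq2 adjusted p = 0.912).

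Foxc2 encodes a forkhead factor of mesenchyme and lymphatic vessels, which is also expressed in spermatogonial stem and progenitor cells. The gene (chromosome 8, 121116171 to 121118895, plus strand) had a mean count of 332 in the authors' deposited table and a level that was 1.63-fold lower in CDH1+/THY1+ cells (log2 -0.71 ± 0.24, DESeq2 adjusted p = 0.0133). The call did not hold under the Benjamini-Yekutieli adjustment of the authors' deposited p-values (adjusted p = 0.177). Its close relative Foxc1 had 0.79 ± 0.35, uncalled in the authors' deposited table (DESeq2 adjusted p = 0.0646). The approximate interval of Foxc1 on the log2 scale, 0.10 to 1.48, did not overlap that of Foxc2, -1.18 to -0.23, but the difference between both genes was not tested.

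Levels of different genes were compared as mean normalised counts per kilobase, over all 6 libraries and not per population. With the joined length of all annotated exons, Tcf3 was the highest of the 10 at 505 counts per kilobase. Twist1 followed at 182, Zeb1 at 135, Foxc2 at 122, Prrx1 at 115 and Snai1 at 81.3 counts per kilobase. The lowest were Tcf4 at 59.9, Zeb2 at 42.0, Snai2 at 40.6 and Twist2 at 25.6 counts per kilobase. The spread over samples is unknown, so no neighbours in this order can be said to differ. The order depended on the length used for genes with many transcripts. Tcf4, with 62 annotated transcripts, stood at 191 counts per kilobase of its longest transcript and at 871 per kilobase of its mean coding transcript, above the 815 of Tcf3. Snai1, Snai2, Twist1 and Foxc2 have 1 annotated transcript each and kept their values. Among the genes with 1 transcript, Snai1 was above Snai2 in level, while Snai2 and not Snai1 was called.

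**Figure D4:**
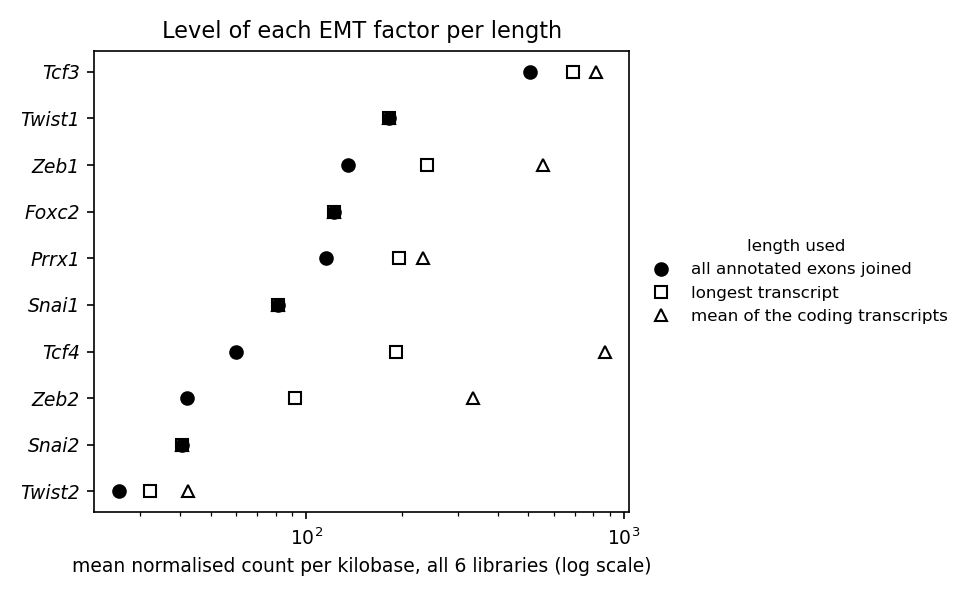
Mean normalised count per kilobase of the 10 factors over all 6 libraries, on a log axis, for 3 choices of gene length. Twist2 and Snai2 are low under each length, and Tcf4 moves from 59.9 to 871 counts per kilobase with the choice.

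Further transcription factors linked to EMT gave no common direction. Of 16 with an adjusted p-value (19 listed), 2 were higher and 3 lower in the authors' deposited table, 31.2% against 33.5% of all genes. The chromatin protein gene Hmga2 rose by 1.09 ± 0.23 in the authors' deposited table (DESeq2 adjusted p = 2.72e-05). The forkhead gene Foxf1 was lower at -1.91 ± 0.24 in the authors' deposited table (DESeq2 adjusted p = 9.78e-14). Klf8, a zinc finger repressor gene, was lower at -1.31 ± 0.26 and Sox4 at -0.63 ± 0.19 in the authors' deposited table (DESeq2 adjusted p = 4.36e-06 and 0.00466). HMGA2 is known as an activator of SNAI genes in epithelial cells.

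Genes of cofactors and chromatin proteins linked to EMT factors, here called cofactor genes, were called in both directions. Of 19, 7 were higher and 6 lower in the authors' deposited table, 68.4% against 33.5% of all genes. Among genes with at least the mean count of the least abundant factor, 44.2% were called. The cofactor genes were abundant, with a median mean count of 1700, and this was not matched. Ctbp2, a corepressor gene of ZEB proteins, rose by 1.70 ± 0.23 in the authors' deposited table (DESeq2 adjusted p = 1.24e-11). Its relative Ctbp1, at a mean count of 1642, had 0.29 ± 0.19, uncalled in the authors' deposited table (DESeq2 adjusted p = 0.252). Rcor1, which encodes the CoREST scaffold, rose by 1.08 ± 0.19, the Polycomb methyltransferase gene Ezh2 by 0.84 ± 0.23 and the deacetylase gene Hdac1 by 0.61 ± 0.19 in the authors' deposited table (DESeq2 adjusted p of 0.00501 or less). The histone H3K9 methyltransferase genes Ehmt2 and Suv39h1 were lower, at -0.84 ± 0.16 and -0.88 ± 0.18 in the authors' deposited table. Nsd2, an H3K36 methyltransferase gene, and Sin3a, a deacetylase scaffold gene, were also lower, at -0.81 ± 0.16 and -0.67 ± 0.16 in the authors' deposited table. All 4 of these lower genes had a DESeq2 adjusted p of 0.00017 or less.

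SNAI and TWIST proteins are short-lived, and their level is set by phosphorylation and ubiquitin ligases. Of 18 genes of this control, 1 was higher and 2 were lower in the authors' deposited table, 16.7% against 33.5% of all genes. Their median mean count was 1032, and 44.2% were called among genes with at least the mean count of the least abundant factor. Siah1b, a ubiquitin ligase gene, was lower at -1.19 ± 0.17 in the authors' deposited table (DESeq2 adjusted p = 5.52e-11), and the ligase subunit gene Fbxw7 was lower at -0.43 ± 0.15 (DESeq2 adjusted p = 0.0176). The kinase gene Csnk1e rose by 0.50 ± 0.15 in the authors' deposited table (DESeq2 adjusted p = 0.00286). Protein levels were not measured.

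Genes of signalling proteins linked to EMT divided as well, with 6 of 23 genes higher and 4 lower in the authors' deposited table, 43.5% against 33.5% of all genes. The median mean count of these 23 genes was 1130. Their share is close to the 44.2% called among genes with at least the mean count of the least abundant factor. The NF-kappaB gene Nfkb1 rose by 0.99 ± 0.23, Bmp4 by 1.13 ± 0.27, Wnt5a by 1.25 ± 0.36 and Egfr by 0.59 ± 0.17 in the authors' deposited table (DESeq2 adjusted p of 0.00346 or less). Smad2, a signal transducer gene of TGF-beta, was lower at -0.83 ± 0.15 in the authors' deposited table (DESeq2 adjusted p = 8.13e-07). Bmp7, Jag1 and Stat3 were lower at -0.51 ± 0.18, -0.66 ± 0.26 and -0.47 ± 0.20 in the authors' deposited table (DESeq2 adjusted p of 0.0491 or less).

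Genes that EMT factors are known to lower or raise were set beside them. Of 21 epithelial genes with a row (30 listed), 8 were higher and 2 lower in the authors' deposited table, 47.6% against 33.5% of all genes, with a median log2 fold change of 0.59. The polarity gene Llgl2 rose by 1.70 ± 0.34, the desmosomal genes Pkp2 and Pkp3 by 1.36 ± 0.30 and 1.75 ± 0.47 and desmoplakin, Dsp, by 2.05 ± 0.61 in the authors' deposited table (DESeq2 adjusted p of 0.00382 or less). The tight junction genes Ocln and Marveld2 were lower, at -0.98 ± 0.21 and -1.11 ± 0.29 in the authors' deposited table (DESeq2 adjusted p of 0.00081 or less). Of 32 mesenchymal genes with a row (33 listed), 14 were higher and 1 lower in the authors' deposited table, 46.9% against the same 33.5%, with a median of 0.67. Both shares, which join the 2 directions, are close to the 44.2% of genes with at least the mean count of the least abundant factor. By direction, 38.1% of epithelial and 43.8% of mesenchymal genes were higher, against 17.1% of all genes. Lower were 9.52% and 3.1%, against 16.4%. These backgrounds are not matched in abundance, as the median mean count was 655 for the epithelial and 5221 for the mesenchymal genes. The 6 genes that are also fibroblast markers were all uncalled, so leaving them out could not change the number of calls. This step therefore does not set the list apart from fibroblast RNA. The counts were then 14 higher and 1 lower of 26 genes in the authors' deposited table. Among them the fibronectin receptor subunit gene Itga5 rose by 0.83 ± 0.16, the hyaluronan receptor gene Cd44 by 1.14 ± 0.23 and fibronectin, Fn1, by 0.72 ± 0.14 in the authors' deposited table (DESeq2 adjusted p of 6.13e-06 or less). Mmp9, a matrix protease gene, was lower at -0.58 ± 0.24 in the authors' deposited table (DESeq2 adjusted p = 0.0473). Epithelial and mesenchymal lists both had more higher than lower genes in CDH1+/THY1+ cells, the side on which Snai2, Zeb2, Prrx1 and Tcf4 were higher.

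Factors that hold the epithelial state gave 3 higher and 0 lower among 9 with an adjusted p-value (18 listed) in the authors' deposited table, 33.3% against 33.5% of all genes. The splicing regulator gene Esrp2 rose by 1.57 ± 0.42, Trp63 by 1.37 ± 0.47 and Klf4 by 0.60 ± 0.23 in the authors' deposited table (DESeq2 adjusted p of 0.0291 or less). Their mean counts were 72.6, 23.3 and 780. The other 6 were not called, and the median log2 fold change of all 9 was -0.06. Esrp1, the relative of Esrp2, was among those not called, at a mean count of 1548 and -0.38 ± 0.23 (DESeq2 adjusted p = 0.189).

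**Figure D5:**
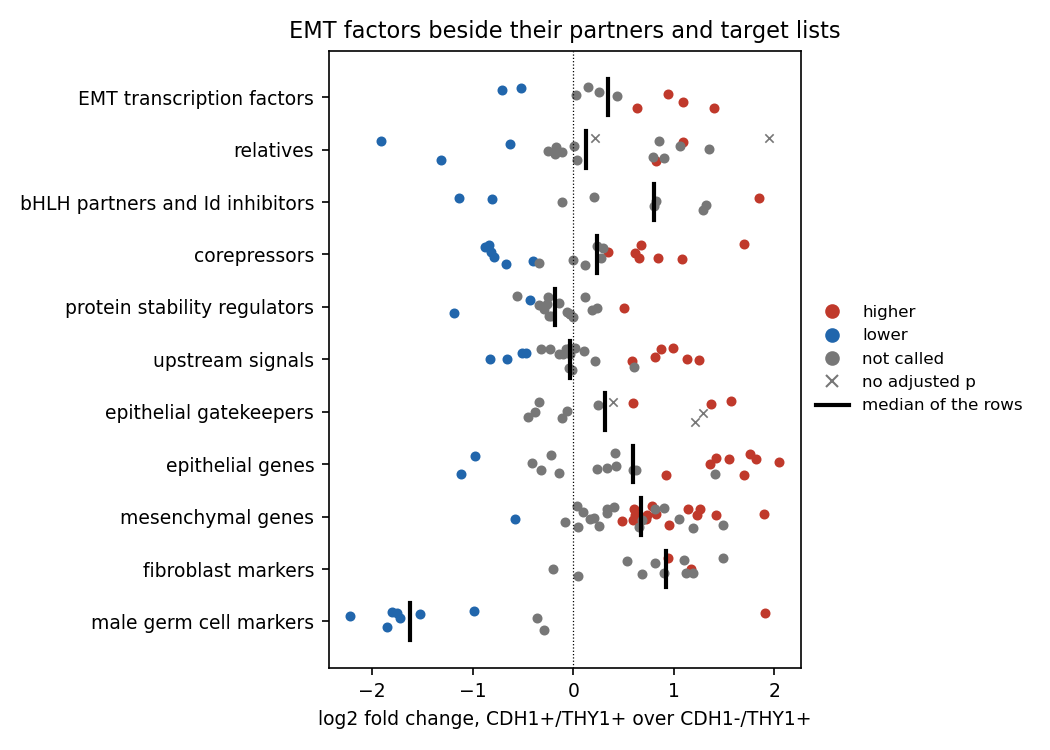
Log2 fold change (CDH1+/THY1+ against CDH1-/THY1+) of each gene with a row in the 10 EMT factors and 10 further lists, with the median of each list as a black bar. The EMT factors lie on both sides of 0, the fibroblast markers have a median of 0.92 and the germ cell markers one of -1.63.

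Markers of other cells moved in the same comparison. The feeder fibroblasts are mesenchymal, and 11 of 12 fibroblast markers had a fold change above 0 in the authors' deposited table, with a median of 0.92. The authors' deposited table had 2 of these 12 called higher (16.7%, against 17.1% of all genes) and 0 lower, and their mean counts ran from 131 for Fap to 89729 for Col3a1. Fbln2 and Loxl1 were the ones called, at 1.18 ± 0.26 and 0.94 ± 0.31 in the authors' deposited table (DESeq2 adjusted p = 3.63e-05 and 0.00957). Standard errors of the fibroblast markers were large, at a median percentile of 97 among genes of nearest mean count in the authors' deposited table, and those of the EMT factors at 83.2. High percentiles were not particular to these lists. The median was 95 for the epithelial genes, 90.5 for the mesenchymal genes and 88 for the germ cell markers. It was 64 for the cofactor genes and 40.5 for the genes of SNAI and TWIST protein control. Tcf4 (99), Prrx1 (94), Twist1 (91), Zeb2 (89) and Zeb1 (87.5) were the factors with the highest such percentiles in the authors' deposited table. The part of fibroblast RNA in the values of Snai2, Zeb2, Prrx1 and Tcf4 was not tested. In these sorted bulk samples fewer cells of a type and less RNA per cell cannot be told apart.

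Germ cell markers were present, with mean counts of 320 to 14797 in the authors' deposited table, and 7 of 10 were lower and 1 was higher in CDH1+/THY1+ cells, against 16.4% and 17.1% of all genes, with a median of -1.63. Tcf3 and Foxc2 were lower in the same comparison, and the part of germ cell content in their values was not tested. Of the other cell types, 1 of 6 Sertoli markers with an adjusted p-value (Clu), 1 of 4 smooth muscle markers (Cnn1) and both leukocyte markers with a row (Cd68 and Ptprc) were called higher by DESeq2 in the authors' deposited table, while 0 of 3 endothelial markers were called. Over the whole lists in the authors' deposited table, mean counts of the 7 Sertoli markers ran from 2.27 for Amh to 1582 for Clu, with a median of 67.1. Those of the 3 endothelial markers with a row ran from 4.39 for Cdh5 to 55.1 for Tek, with a median of 36.6.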

How the data were processed

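RNA of 6 samples was analysed through 1 table of the authors' own comparison. Per the labels' protocols, stranded libraries of total RNA were made after ribosomal RNA depletion and sequenced on an Illumina NextSeq500. The submitters' processing notes name Trimmomatic 0.32, TopHat2 2.1.1, featureCounts (Subread 1.5.0-p3), the authors' DESeq2 1.12.3, R 3.3.1 and the build GRCm38.p4. The annotation release, strand setting and model formula are not given in the sources used here. The authors' mean normalised count was deposited as a signal that is never negative, over the 6 libraries together. Fold changes and standard errors were deposited in log2 units, Wald statistics were deposited as scores, and a deposited p-value and adjusted p-value stand beside each gene. The largest standard error at any mean count was 0.639, as with fold changes shrunken towards 0, which understate changes of genes with few reads. Depth per sample is unknown.

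Gene symbols, positions and exon lengths came from GENCODE M21 (GRCm38), by Ensembl identifier without version, and were found for 22317 of 22432 rows. No adjusted p-value was given for 3221 rows. Calls are the authors' DESeq2 adjusted p under 0.05. Alternatives were a threshold of 0.01, both Benjamini-Hochberg and Benjamini-Yekutieli over all 22330 p-values, a 2-fold minimum and a mean count of at least 10. Both adjustments were tested on simulated data. Approximate 95% intervals used a normal distribution. Promoters and microRNAs were read from RefSeq tables (GRCm38.p6), and 3' UTRs from GENCODE transcripts with an annotated stop codon (Python 3.11.15, pandas 2.3.3). The factors and the 14 further lists were chosen with earlier results of these data known. All 10 factors are named, and from each list at most the 4 called genes with the smallest adjusted p-values per direction, beside every relative or partner of interest. A few genes that this rule names are not reported here. Genes of like pattern across samples were not sought, since the table holds no value per library.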

Additional observations from a re-analysis of the deposited data

How the results depend on the processing

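Under an adjusted p of 0.01, the Benjamini-Yekutieli adjustment and a 2-fold minimum, 2 of the 4 higher EMT factors were called in each case. They were Tcf4 and Prrx1 under the first pair of settings, and Tcf4 and Snai2 under the 2-fold minimum. Of the 2 lower factors, 1 was called under the first pair of these settings and 0 under the 2-fold minimum. With a minimum mean count of 10, or Benjamini-Hochberg over every p-value, the counts stayed at 4 and 2. Over the 14 further lists, 49 genes were higher and 27 lower. The higher ones numbered 31 at 0.01, 24 under Benjamini-Yekutieli and 25 at 2-fold, and the lower ones 11 at 2-fold. Over all genes, 3292 higher and 3146 lower genes became 2107 and 2313 at 0.01, 1666 and 1967 under Benjamini-Yekutieli, and 1435 and 1256 at 2-fold. These settings are stricter by construction. The order of the factors by level kept 3 of 10 ranks with the longest transcript and 2 with the mean coding transcript. No sign changed under these settings, since they all use the deposited fold changes. No paired analysis was possible because the table holds no value per library, and leaving out a replicate was not run for the same reason. Depth per sample is unknown, so the limit it sets for Snai2 and Twist2, the factors of lowest mean count, is carried by the authors' standard error alone.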

Other observations

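Promoter windows of the epithelial and mesenchymal lists differed in how often they held CACCTG on either strand, the E-box of SNAI and ZEB proteins. Of 21 epithelial genes with a RefSeq window (GRCm38.p6, 250 bases before to 50 after the start), 18 (85.7%) held it in at least 1 window, against 1 of 19 mesenchymal genes (5.26%) and 22.6% of all 27025 genes with a window. Within the 250 bases before the start it was 15 of the 21 epithelial genes, 0 of the 19 mesenchymal genes and 19.4% of all genes. These 21 epithelial genes are not the same set as the 21 with a row in the authors' deposited table. Of those with a window, 6 have no row, and all 6 held CACCTG in the longer window. Of the 19 mesenchymal genes, 1 has no row, and it did not hold CACCTG. The base composition of the windows was not matched. The lists hold genes that EMT factors are known to lower or raise, so this difference is not independent of how the genes were chosen. Whether the E-box goes with the direction of change was not tested. It could not be judged here, since most epithelial genes held it and few called ones have a window. Both called epithelial genes that were lower, Ocln and Marveld2, held it. Of the 8 that were higher, 3 have a window, and 2 of these held it (Cldn3 and Dsp, not Jup). Among those not called, 8 of 10 with a window held it. The 1 mesenchymal gene that held it was Sparc, at 0.60 ± 0.20 in the authors' deposited table (DESeq2 adjusted p = 0.00853).

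Foxc2 lies in a cluster of forkhead genes, and its neighbours were looked up after its value was seen. Foxf1, 28.0 kilobases before it on the same strand of chromosome 8, was lower at -1.91 ± 0.24 in the authors' deposited table (DESeq2 adjusted p = 9.78e-14). Foxl1, 9.04 kilobases after it, had a mean count of 32.6 and -0.40 ± 0.39, uncalled in the authors' deposited table (DESeq2 adjusted p = 0.454). Mthfsd, a gene between Foxf1 and Foxc2 on the other strand, had 0.52 ± 0.22 in the authors' deposited table without a call (DESeq2 adjusted p = 0.0577).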
